A study of Mus musculus with 9 samples.

Results

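The red cell membrane skeleton and blood-group genes are 8 of the 56980 genes of a table of bulk RNA sequencing from mouse bone: Sptb, Ank1, Epb41, Epb42, Slc4a1, Rhag, Rhd and Kel. They were taken by gene symbol, each symbol matched 1 row, and all 8 passed the filter on low counts, with 726 to 77108 estimated counts per library. The libraries came from 4 young wild-type mice aged 3 months and 5 aged wild-type mice aged 20 months. All are described as female C57BL/6 mice with no treatment besides age, from a series on the sensory nerves of ageing bone that asked how gene expression changes between these ages. Bone marrow is the labelled tissue, but RNA was taken from homogenised trabecular bone per the labels' protocols, and transcripts of red cell precursors, neutrophils, osteoblasts and skeletal muscle were all present.

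A red cell keeps its shape through a net of spectrin beneath its membrane. Ankyrin ties spectrin to the anion exchanger band 3, and the Epb41 product ties spectrin and actin to other membrane proteins. The Rh proteins and the Kell protein sit in or beside these complexes and carry blood-group antigens in people. In marrow these proteins are made by erythroblasts, the nucleated red cell precursors, and inherited loss of several of them causes anaemia with misshapen red cells.

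Sex chromosome transcripts and a division among the libraries cross the age comparison. Counts of Xist, which silences an X chromosome, were 7909 to 21724 in aged 1 to 4 and 1 to 9 in the other 5 libraries. Ddx3y, on the Y chromosome, was counted 888 to 1721 times in those 5 and 0 times in aged 1 to 4. The stated female sex is thus contradicted in young 1 to 4 and aged 5, and age and sex chromosome transcripts cannot be told apart outside aged 5. Young 4, aged 3 and aged 4 (the 3-library set) also stood apart from the other 6 libraries, with ribosomal protein genes at 6.13% to 7.30% of the counts against 3.17% to 3.43%. Totals were 19804883 to 23548594 estimated counts per library. Results are given with and without the 3-library set, a split that was drawn from these data. The labels call each library a biological replicate.

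The upstream sequences of 4 members, those with a single listed start site and a motif match in the stretch printed, are shown because the 8 transcripts varied together across libraries and these are the stretches next to their start sites. They come from RefSeq (build GRCm38.p6), which listed a window for 6 of the 8 genes, and each stops before the gene's RefSeq transcripts. Capitals mark matches to GATA hexamers (GATAA or GATAG preceded by A or T, the letters of GATA-factor sites) or to CCNCNCCC (the letters of KLF-factor sites), read on both strands.
Epb42: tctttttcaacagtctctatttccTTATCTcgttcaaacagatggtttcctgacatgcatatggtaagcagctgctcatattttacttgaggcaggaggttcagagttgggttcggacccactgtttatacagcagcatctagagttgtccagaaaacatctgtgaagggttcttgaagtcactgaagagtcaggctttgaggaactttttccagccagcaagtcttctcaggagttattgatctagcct
Kel: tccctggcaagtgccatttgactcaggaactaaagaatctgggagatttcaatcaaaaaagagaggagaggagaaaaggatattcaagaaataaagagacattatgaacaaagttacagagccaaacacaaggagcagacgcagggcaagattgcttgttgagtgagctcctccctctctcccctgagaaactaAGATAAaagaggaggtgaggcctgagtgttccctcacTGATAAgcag
Rhd: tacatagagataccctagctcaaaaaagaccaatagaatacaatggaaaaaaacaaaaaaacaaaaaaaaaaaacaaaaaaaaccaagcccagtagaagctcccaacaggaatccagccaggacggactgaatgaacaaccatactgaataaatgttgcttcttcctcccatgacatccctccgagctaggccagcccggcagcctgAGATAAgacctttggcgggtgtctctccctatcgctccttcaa
Sptb: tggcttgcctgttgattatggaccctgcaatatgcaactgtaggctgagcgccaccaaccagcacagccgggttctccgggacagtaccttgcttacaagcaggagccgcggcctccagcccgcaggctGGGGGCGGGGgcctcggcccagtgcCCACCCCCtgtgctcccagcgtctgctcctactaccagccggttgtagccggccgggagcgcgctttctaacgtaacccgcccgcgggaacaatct
The stretches lie at chr2:121036878-121037127 (minus strand) for Epb42, chr6:41704335-41704575 (minus) for Kel, chr4:134864286-134864535 (plus) for Rhd and chr12:76710548-76710797 (minus) for Sptb. Over windows of 250 bases before and 50 after the start site, 7 of 8 member windows held a GATA match and 4 of 8 a CCNCNCCC match. Of all 32851 windows 29.8% held the former and 49.5% the latter. The GATA match began at position −226 from the start site in Epb42, −43 in Rhd, −31 in Rhag and −56 and −19 in Kel. In Sptb it began at 13, beyond the stretch shown. The capitals in Sptb are 3 CCNCNCCC matches, the leading pair overlapping. Epb41 has 3 windows, of which 2 held a GATA match. A match is a run of letters, not evidence of binding.

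All 8 transcripts were lower in aged than in young bone, by 1.12 to 1.49 on the log2 scale. In the edgeR quasi-likelihood test of all 9 libraries, 0 of the 8 passed an adjusted p of 0.05, and neither did any other gene (0% of 16576). At an unadjusted p under 0.05 all 8 were lower, as were 4.64% of all tested genes. Limma-voom called 0 of the 8. DESeq2 called 3 of the 8 lower (1.06% of its genes), which were Epb42, Slc4a1 and Kel. In the authors' deposited table only Epb42 among the 8 was marked significant, with a log2 fold change of −1.41 and an adjusted p of 0.0444, while the other 7 had adjusted p-values of 0.0563 to 0.293. The median log2 fold change was −1.24 over the 8 and 0.03 over all tested genes, of which 46.5% were below 0. In bulk RNA, fewer red cell precursors and less of these transcripts per precursor cannot be told apart.

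**Figure D1:**
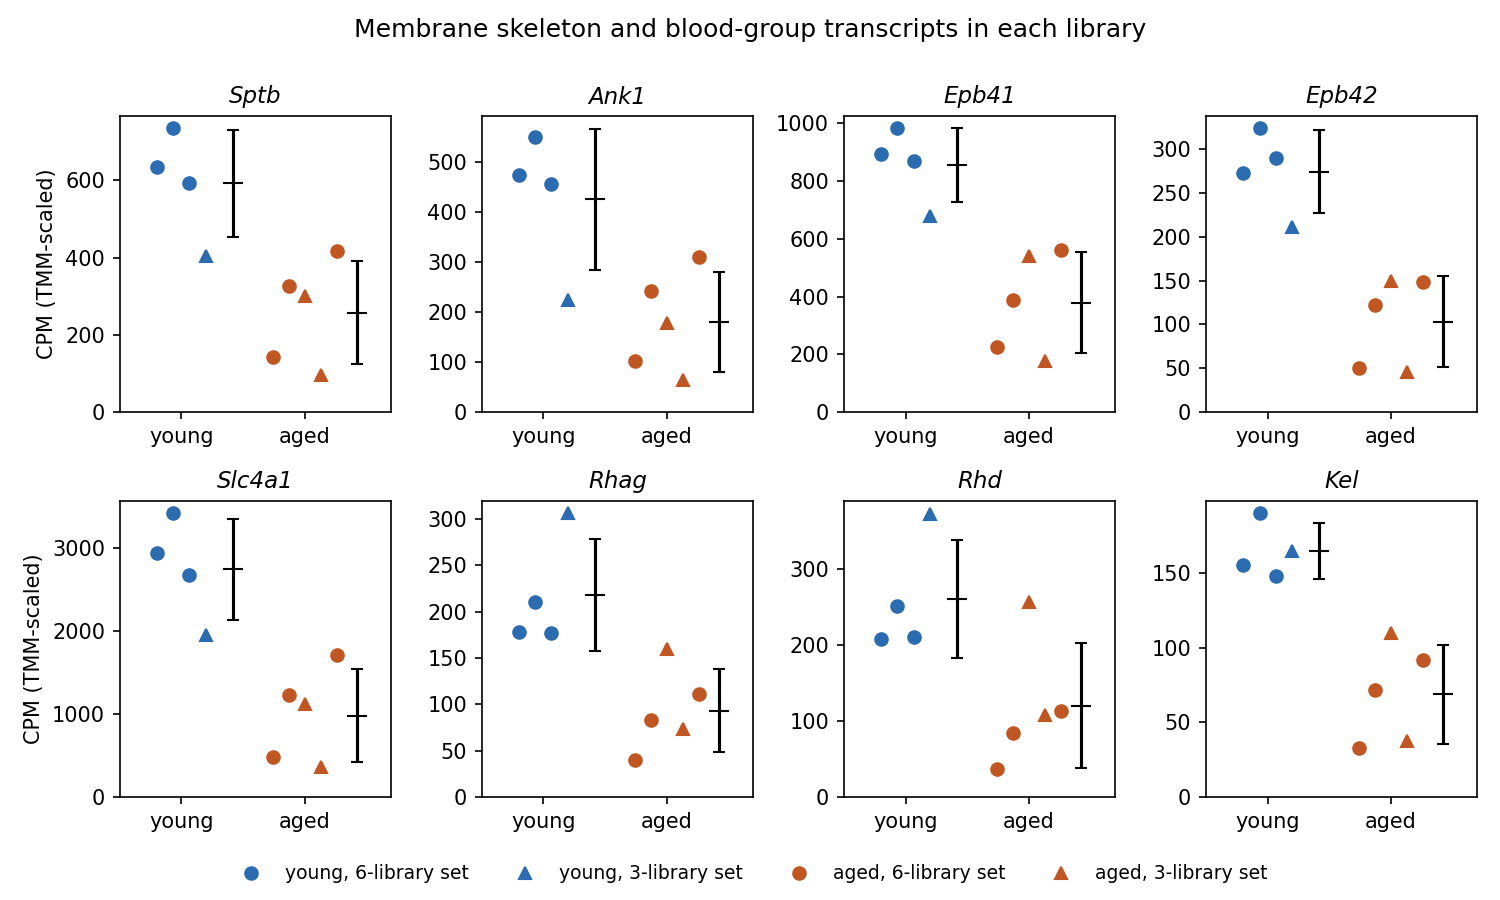
Level of each member in each library, in CPM (counts scaled to a common library size with TMM factors). Points are libraries, triangles are young 4, aged 3 and aged 4, and bars are group means ± SD (n = 4 young and 5 aged). In 5 panels every aged library lies below every young library, and in those of Sptb, Ank1 and Rhd the groups overlap.

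The levels that follow are CPM, counts scaled to a common library size with TMM factors. Among the skeleton genes, Sptb encodes the red cell beta-spectrin. It was at 636, 735, 593 and 405 CPM in young 1 to 4 and at 142, 328, 302, 96.9 and 418 in aged 1 to 5. Young 4 lay just below aged 5, so the groups overlapped, and the log2 fold change was −1.20 (SE 0.41, edgeR adjusted p = 0.399). Ank1 encodes ankyrin, the link from spectrin to band 3. It was at 473, 550, 456 and 224 CPM in young 1 to 4 and at 102, 242, 178, 65.1 and 309 in aged 1 to 5. Here young 4 lay below aged 2 and aged 5, and the log2 fold change was −1.25 (SE 0.45, edgeR adjusted p = 0.427). Epb41, whose product strengthens the spectrin and actin junction, was at 894, 984, 870 and 680 CPM in young 1 to 4 and at 227, 390, 541, 177 and 562 in aged 1 to 5. Its groups did not overlap (log2 fold change −1.18, SE 0.36, edgeR adjusted p = 0.342). Epb42, a relative of the transglutaminases with no enzyme activity, binds band 3 and ankyrin. It was at 273, 324, 290 and 211 CPM in young 1 to 4 and at 50.8, 122, 149, 45.3 and 148 in aged 1 to 5. Every aged library lay below every young one (log2 fold change −1.41, SE 0.38, edgeR adjusted p = 0.316).

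Slc4a1 encodes band 3, the chloride and bicarbonate exchanger and the main anchor of the skeleton. It was at 2932, 3413, 2672 and 1952 CPM in young 1 to 4 and at 479, 1228, 1120, 359 and 1711 in aged 1 to 5. The groups did not overlap, and its log2 fold change was the largest of the 8, at −1.49 (SE 0.45, edgeR adjusted p = 0.342).

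Rhag encodes the glycoprotein that carries the Rh proteins to the surface. It was at 178, 211, 177 and 306 CPM in young 1 to 4 and at 39.6, 82.7, 160, 73.1 and 111 in aged 1 to 5. Young 4 was the highest library, unlike for the skeleton genes, and the groups did not overlap (log2 fold change −1.23, SE 0.36, edgeR adjusted p = 0.342). Rhd, the single Rh antigen gene of the mouse, was at 208, 252, 211 and 374 CPM in young 1 to 4 and at 37.4, 84.4, 257, 108 and 114 in aged 1 to 5. Aged 3 lay above young 1, 2 and 3, so the groups overlapped, and the log2 fold change was −1.12 (SE 0.46, edgeR adjusted p = 0.510). Kel encodes the Kell antigen, a surface metalloprotease. It was at 155, 190, 148 and 164 CPM in young 1 to 4 and at 32.7, 71.6, 109, 37.7 and 91.5 in aged 1 to 5, without overlap (log2 fold change −1.26, SE 0.35, edgeR adjusted p = 0.320).

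Groups of 5 of the 8 genes did not overlap over the 9 libraries, against 2.76% of all tested genes with every aged library below every young one. The 3 exceptions were Sptb, Ank1 and Rhd, and in each a library of the 3-library set was involved. Within the 6-library set all 8 had every aged library below every young one (16.6% of tested genes), and within the 3-library set all 8 as well (32.1%). Both held together for all 8 and for 9.62% of tested genes.

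The age difference was below 0 for all 8 within each set. Within the 6-library set the log2 fold changes ran from −1.50 for Rhd to −1.14 for Sptb, with edgeR adjusted p-values of 0.0802 to 0.123. Within the 3-library set, with 1 young library and no test, they ran from −1.33 for Slc4a1 to −0.81 for Ank1. Adding the library set to the fit gave −1.40 for Slc4a1 to −1.09 for Ank1, all 8 below 0 (48.9% of tested genes). In that fit 0 of the 8 were called (1.31% of tested genes were called lower), with edgeR adjusted p-values from 0.0596 for Rhag to 0.134 for Sptb. The result leaned on aged 3: without it the same fit called all 8 lower (6.4% of tested genes, adjusted p 0.0207 to 0.0345), with log2 fold changes of −1.65 to −1.33. Without aged 5 it called 1, Rhag (2.42%, adjusted p = 0.0354). A test of whether the age difference itself differed between the sets called 0 of the 8 and 0.0121% of tested genes. It rests on young 4 as the only young library of the 3-library set. Its SEs were 0.70 for Rhag to 0.91 for Slc4a1 on the log2 scale. Large differences could thus be missed, and the test does not show that the sets agree.

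**Figure D2:**
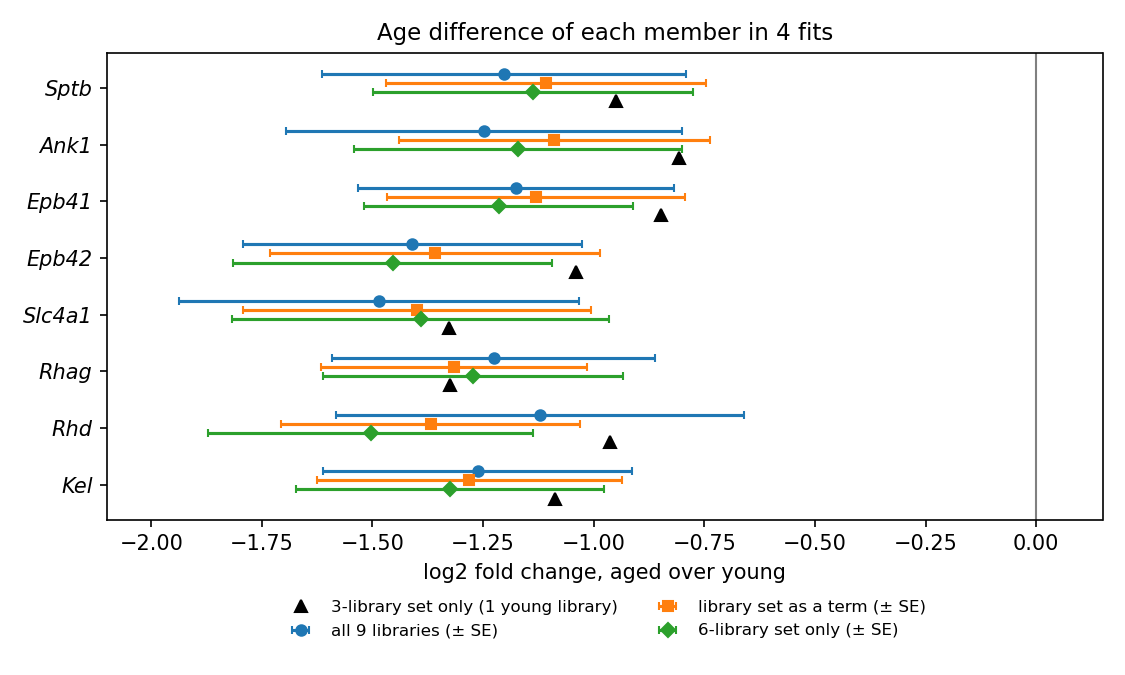
Log2 fold change (aged over young) of each member in 4 fits, with standard errors where a test was made. Every point lies below 0, from −1.50 to −0.81.

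The aged library with Y-linked transcripts had high levels among the aged. Aged 5 was the highest aged library for Slc4a1, Sptb, Ank1 and Epb41. Against young 1 to 3, which share its Y-linked transcripts and its library set, its log2 fold changes were −1.0 for Epb42, −0.99 for Rhd, −0.85 for Kel, −0.82 for Slc4a1, −0.78 for Rhag, −0.71 for Epb41, −0.68 for Ank1 and −0.66 for Sptb. In this comparison of 3 libraries with 1, edgeR called 7 of the 8 lower (2.08% of tested genes) and not Sptb (adjusted p = 0.0572), but all of its spread comes from young 1 to 3. These were the closest of all pairs (chi-square per gene 16.8 to 20.0), while aged 1, 2 and 5 differed by 116 to 139, so its p-values do not cover the spread among aged mice and nothing rests on them. When library set and Y-linked status were both in the fit, the 8 values were −0.90 to −0.59 with adjusted p-values of 1. Aged 5 alone sets the age difference in both.

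The members varied together more closely within the 6-library set than across all 9 libraries. Over the 28 pairs of members, Pearson correlations of log2 CPM were 0.987 to 0.9998 across the 6 libraries and 0.533 to 0.995 across the 9. These points share libraries and scaling, and the values are a description. The pair with the lowest correlation was Ank1 and Rhd. Beside Rhag, its partner in the Rh complex, Rhd was higher by 0.68 and 0.57 on the log2 scale in aged 3 and aged 4 and by 0.29 in young 4. In the other 6 libraries this difference was −0.08 to 0.26.

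Deposited gene length ran with the difference between the library sets. With age in the fit, the 3-library set stood above the 6-library set by 1.04 on the log2 scale for Rhd (length 1514 bases) and by 0.63 for Rhag (2339 bases). It stood below by 0.95 for Ank1 (8218 bases; log2 value −0.95) and by 0.62 for Sptb (10394 bases; log2 value −0.62). Across the 8 genes the Pearson correlation of this difference with log2 length was −0.915 and Spearman's rho −0.833, given without a test since genes are not replicates. Over all 16576 tested genes they were −0.292 and −0.467. The median difference between the sets was 0.78 in the 4144 shortest tested genes and −0.58 in the 4144 longest, so the longest and shortest genes of the libraries as a whole differed in the same sense. In CPM, 0 of the 8 had all of the 3-library set below the other libraries (20.9% of tested genes) or above them (20%).

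Counts and TPM together also carry a length: counts divided by TPM is proportional to the transcript length that the quantification assigned to a gene in a library. Relative to Slc4a1 in the same library, Kel had a value of 0.316 to 0.399 in the 6-library set and 0.117 to 0.164 in the 3-library set. Ank1 was at 0.907 to 1.13 and 0.517 to 0.70, Epb41 at 0.972 to 1.02 and 0.703 to 0.718, and Epb42 at 0.459 to 0.516 and 0.362 to 0.378. Together with Sptb, whose ranges lay close together (1.92 to 1.98 and 1.84 to 1.90), 5 of the 7 members other than Slc4a1 had lower values in every library of the 3-library set. Slc4a1, as the reference, is at 1 in every library and could not differ. Of tested genes with a value, 20% did so and 19.2% had higher values there. Rhag and Rhd kept overlapping ranges, at 0.479 to 0.487 and 0.484 to 0.487 for Rhag. Even in the 6-library set, Ank1, Epb42 and Kel had implied lengths relative to Slc4a1 well below their deposited ones. Those were 8218, 4115 and 2530 bases, against 4545 for Slc4a1. The correlations with length above used the deposited lengths. GENCODE M21, an annotation that may not be the authors', lists 17 transcripts for Ank1, 19 for Epb41, 7 for Epb42, 5 for Kel and for Slc4a1, 3 for Rhag and for Sptb, and 2 for Rhd. The shortest annotated coding transcript is 322 bases for Kel and 328 for Ank1, against 2530 and 8218 for the longest.

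**Figure D3:**
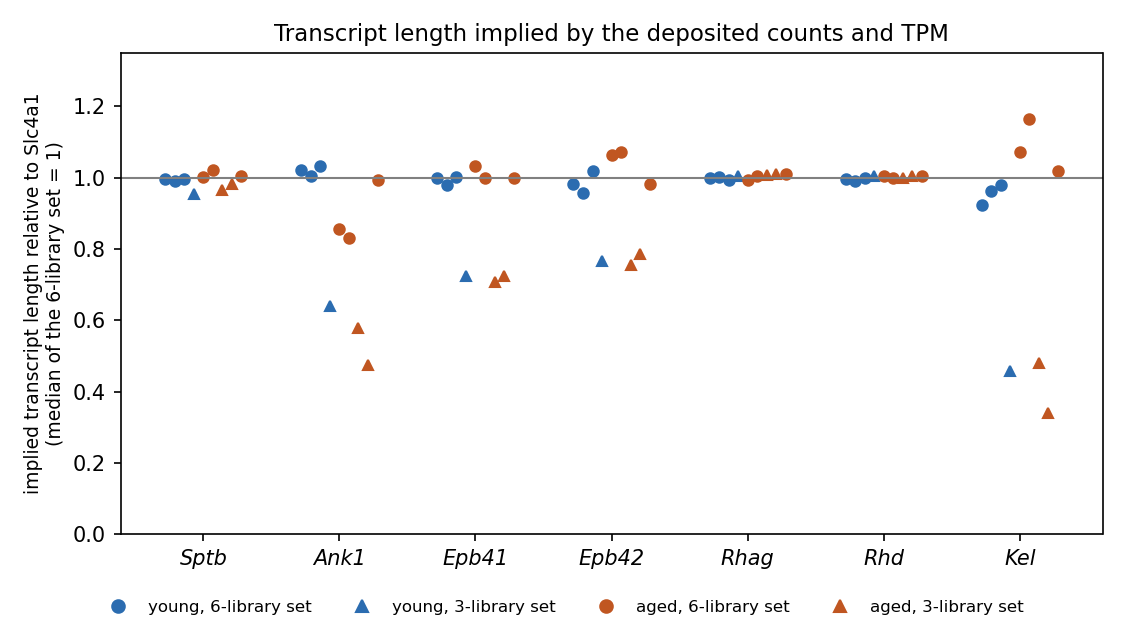
Transcript length implied by counts and TPM, relative to Slc4a1 in the same library and scaled so that the median of the 6-library set is 1, for the other 7 members. Triangles (young 4, aged 3 and aged 4) lie lowest for Kel, Ank1, Epb41 and Epb42, with medians of 0.456, 0.578, 0.724 and 0.765, and near 1 for Rhag and Rhd.

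Levels of different genes can be set side by side only per length. In deposited TPM, a level per length, Slc4a1 was highest in 8 of the 9 libraries, with a mean of 662 ± 300.4 over the young mice (SD, n = 4) and 239 ± 170 over the aged mice (SD, n = 5). In aged 4 Rhd was above it, at 61.8 against 60.4 TPM. Epb41 was next in young libraries at 215 ± 71.8 TPM, then Rhd at 190 ± 32.7, Epb42 at 142 ± 51.8, Kel at 132 ± 15.1, Ank1 at 98.3 ± 42.1, Rhag at 97.1 ± 17.3 and Sptb at 74.9 ± 33.9 TPM (SD, n = 4). Epb41 exceeded Rhd, Epb42 exceeded Kel and Ank1 exceeded Rhag in 6 of 9 libraries each. These were the libraries of the 6-library set, and all of these orders were reversed in young 4, aged 3 and aged 4. Kel exceeded Ank1 in 6 of 9, and lay below it in aged 1, 2 and 5. Rhd exceeded Epb42 in 9 of 9, and Sptb was lowest in 9 of 9. In young 4 Slc4a1 was at 224 TPM, against 709.5 to 875 in young 1 to 3, while Kel was at 121 TPM, against 117 to 148. TPM is a level per assigned length. Relative to Slc4a1, that length was lower in the 3-library set for Kel, Ank1, Epb41, Epb42 and, slightly, Sptb. TPM levels and orders in that set carry this difference, and its part in them was not tested.

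Set against 5 transcripts of erythroid regulators (Gata1, Klf1, Epor, Tal1 and Gfi1b) in the same library, a ratio hardly touched by library scaling, the members were lower in aged libraries by smaller amounts. The regulators were themselves all below 0, with a median log2 fold change of −0.92, and neither edgeR nor DESeq2 called any. The aged mean log2 ratio minus the young mean was −0.67 for Slc4a1, −0.56 for Epb42, −0.40 for Kel, −0.37 for Ank1, −0.35 for Sptb, −0.33 for Rhd, −0.32 for Rhag and −0.29 for Epb41. Within the 6-library set the differences were −0.54 for Rhd to −0.17 for Sptb, with −0.47 for Slc4a1 and −0.21 for Ank1. Within the 3-library set, with 1 young library, they were −0.57 for Slc4a1 to −0.0055 for Ank1. For Slc4a1, Epb42, Kel, Ank1, Sptb and Epb41 both were smaller in size than the difference over all libraries. A two-sided exact permutation test, run on every tested gene, called 0 of the 8 and 0% of all genes. Rhag alone of the 8 had groups that did not overlap, with the aged libraries lower (0.103% of tested genes in that direction). Its log2 ratio was 0.846, 0.878, 0.805 and 1.08 in young 1 to 4 and 0.397, 0.570, 0.562, 0.699 and 0.691 in aged 1 to 5. The exact permutation p for Rhag was 0.00794, the smallest that 4 against 5 libraries allow, and 0.109 adjusted over all tested genes. The test takes both directions, and an adjusted value of 0.109 at that p arises only where many other tested genes reach it too. With labels permuted within the library sets only, the exact p was 0.0167, the smallest that 60 arrangements allow, for Epb42, Slc4a1, Rhag and Kel, and 0.103 adjusted over all tested genes for each of them. That adjusted value arises only where many other tested genes also reach the smallest p. Their share is not given here, so reaching it does not set these members apart. Leaving out single libraries moved the differences of Ank1, Sptb, Epb41 and Rhd by over 1.5 times. Without young 4 they were −0.77 for Ank1, −0.64 for Sptb and −0.52 for Epb41, and without aged 4 −0.14, −0.13 and −0.13. Without aged 3 they were −0.18 for Ank1 and −0.22 for Sptb, and Ank1 was also moved by leaving out young 1 or young 2 (−0.23 and −0.22). Rhd was at −0.20 without aged 1. On log2 of TPM plus 1 the difference for Ank1 was −0.0002228, and for Kel it was −0.24.

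The same ratio split the members by library set. For Sptb, Ank1, Epb41, Epb42 and Slc4a1 all of young 4, aged 3 and aged 4 lay below the other 6 libraries (9.58% of tested genes did so), and for Rhd all 3 lay above them (1.44%). Ank1 had a mean log2 ratio of 2.12 in the 6-library set and 0.62 in the 3-library set, and Slc4a1 4.60 and 3.37. Rhd had 0.82 and 1.29. Both parts of the ratio differed between the sets. With age in the fit, the median log2 difference of the 3-library set from the 6-library set was 0.54 over the regulators and −0.25 over the members. Set against 8 transcripts of late erythroblasts (Alas2, Fech, Bpgm, Slc25a37, Trim58, Tspo2 and 2 globin genes) instead, the age difference was near 0 for Epb42 (−0.0027) and Slc4a1 (−0.12). For the other 6 genes it turned to 0.16 to 0.26. These differences pool the library sets, between which the ratio itself differed. For Slc4a1 it was 1.78, 1.73 and 1.62 in young 1 to 3 and 1.90, 1.97 and 1.82 in aged 1, 2 and 5. In young 4, aged 3 and aged 4 it was 0.53, 0.31 and 0.51. For Epb42 it was −1.64, −1.67 and −1.58 in young 1 to 3 and −1.34, −1.37 and −1.71 in aged 1, 2 and 5. These late transcripts had a median log2 fold change of −1.29, with 8 of 8 below 0. Of the 8, edgeR called 0 and DESeq2 called 2 lower (1.06% of its genes), Slc25a37 and Fech.

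**Figure D4:**
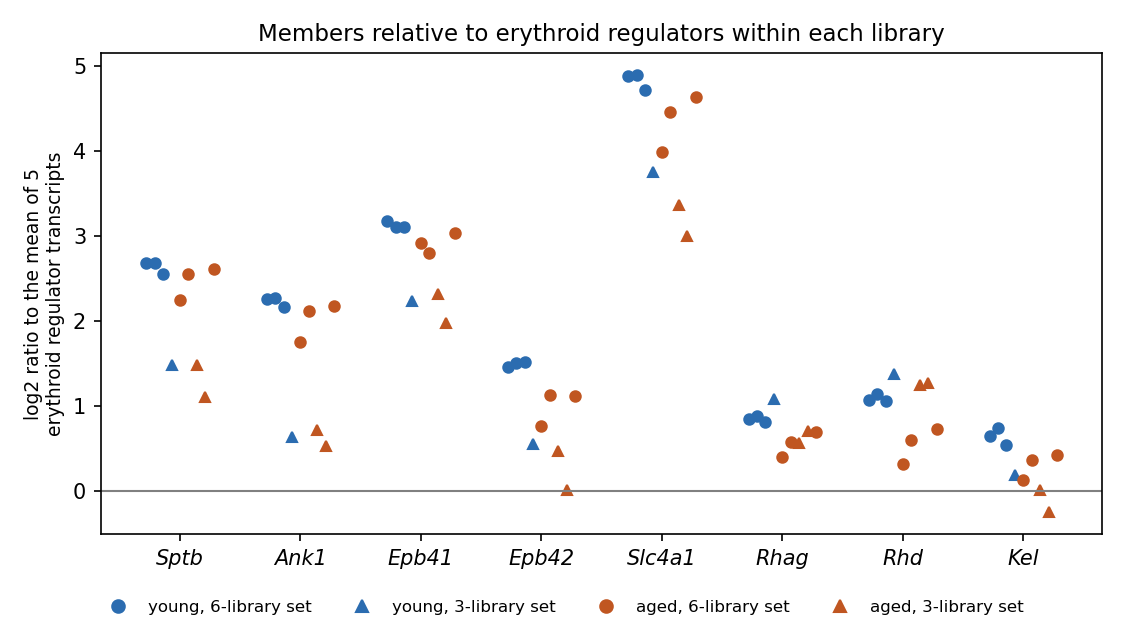
Log2 ratio of each member to the mean of 5 erythroid regulator transcripts in the same library. Triangles are young 4, aged 3 and aged 4. They lie below the circles for the 4 skeleton genes and Slc4a1, and above them for Rhd.

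Other genes of the red cell membrane, from a list of 31, leaned the same way. Of the 31, 26 were below 0 (median log2 fold change −0.77, against 0.03 over all tested genes) and 0 were called by edgeR. DESeq2 called 8 of the 31 lower (1.06% of its genes). The groups of 11 did not overlap, with aged libraries lower (2.76% of tested genes). With library set in the fit, 4 of the 31 fell (1.31%): Add1, a subunit of adducin, which caps actin in the skeleton (edgeR adjusted p = 0.0405), Dmtn (dematin, 0.0492), Art4 (the Dombrock antigen gene, 0.0455) and Smim1 (the Vel antigen gene, 0.0405). All but Add1 were named after their values were seen. These 4 calls were lost on leaving out any 1 library other than aged 3 or aged 5, and with Y-linked status also in the fit, since 0 genes were then called lower. Among the most abundant of the list, Aqp1, the water channel, was at 725 ± 131 CPM in the young and 278 ± 131 CPM in the aged mice (means ± SD, n = 4 and 5, as for the genes that follow) and Ermap (the Scianna antigen gene) at 491 ± 51.9 and 202 ± 97.8 CPM. Stom (stomatin) was at 388 ± 55.0 and 227 ± 52.0 and Bsg (basigin) at 589 ± 399 and 400 ± 210 CPM. Cd47 and Cd44, surface proteins of many blood cells, were at 437 ± 74.5 and 445 ± 116 and at 238 ± 15.9 and 294 ± 79.2 CPM.

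Relatives of the members that serve other cells did not lean that way. Of 24 tested, 11 were below 0 and 13 above (median 0.03), and edgeR on age alone called 0. DESeq2 called 1 of them higher, and so did edgeR with library set in the fit: Tgm1, a transglutaminase of skin, at 4.17 ± 0.575 and 10.3 ± 2.23 CPM (edgeR adjusted p = 0.0405), named after its values were seen. Over all genes DESeq2 called 192 of 15889 higher and edgeR with library set 102 of 16576. With any of young 1, 2, 3 or aged 1 or 4 left out, the fit with library set called 0 genes. The non-erythroid spectrin genes Sptbn1 and Sptan1 were at 197 ± 52.5 and 204 ± 54.7 CPM and at 153 ± 53.1 and 168 ± 72.4 CPM. Tgm2, an active transglutaminase, was at 74.6 ± 11.9 and 77.5 ± 42.3, and Epb41l2, a relative of Epb41, at 62.2 ± 13.6 and 70.5 ± 17.0 CPM (young and aged; SD, n = 4 and 5).

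Genes whose log2 CPM followed the mean of the members most closely across the 9 libraries included Ermap (Pearson r = 0.998), Ube2o (0.995), Snx22 (0.995), Fech (0.994) and Hemgn (0.993). These correlations are a description over libraries that also share depth and composition. Hemgn, for example, was at 413, 489, 427 and 437 CPM in young 1 to 4 and at 86.3, 190, 305, 104 and 249 in aged 1 to 5.

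Markers of other cells differed in direction between lists, and edgeR on age alone and limma-voom called 0 of them. DESeq2 called 2 T and NK cell genes higher, Cd3e and Cd3g, and edgeR with library set in the fit called 1, Cd3g. These were named after their values were seen. Over all genes DESeq2 called 192 of 15889 higher and that edgeR fit 102 of 16576. Skeletal muscle, which also makes Ank1 and Sptb transcripts, was well represented: its 7 markers summed to 3785 to 8860 CPM in young and 3694 to 9225 in aged libraries, and 4 of 7 were below 0. Megakaryocyte markers, whose lineage shares Gata1, Tal1 and Gfi1b, summed to 941 to 1614 and 660 to 2187 CPM, with 3 of 7 below 0. Of 8 neutrophil markers 2 were below 0, of 6 B lineage markers 6, of 5 T and NK cell markers 0, and of 5 osteoblast markers 5. Their median log2 fold changes were 0.11, −1.04, 0.74 and −0.83 in that order. Negative medians were thus not confined to red cell genes. The part of these cells in the members' values was not tested.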

How the data were processed

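RNA was sequenced from 4 young and 5 aged mice and deposited as 1 table of 56980 Ensembl genes. The submitters' processing notes name Bowtie 0.12.2 and the build mm8 with no role; the quantifier and annotation are not given in the sources used here. The authors deposited estimated counts per gene, not normalized, which were rounded here. The authors also deposited TPM, scaled to 1 sum in every library, used for levels between genes and for implied lengths. The log2 fold changes, p-values and adjusted p-values of the authors stem, per the file headers, from DESeq2 with settings not given. The fold ratio column of the authors and their group mean TPM were not used.

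The main test was the edgeR 4.0.16 quasi-likelihood F test in R 4.3.3, two-sided, on age group alone, with TMM scaling, filterByExpr (minimum count 10, total 15) and Benjamini-Hochberg adjustment over 16576 genes at 0.05. SE is the log2 fold change divided by the square root of F. Log2 CPM used a prior count of 2. Permutation tests count absolute differences of means at least as large as observed. Alternatives were DESeq2 1.42.0, limma-voom 3.58.1, other scalings and filters, robust dispersions, library set and Y-linked terms, subsets of libraries and each library left out. Fits and permutations were tested on simulated data. Library pairs all differed beyond sampling noise (smallest chi-square per gene 16.8). 

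The members and all gene lists were chosen with earlier results of these data known. The text names the 8 members, the 8 most abundant other membrane genes, the 4 most abundant relatives, the 6 genes most like the members, and those marked as named later, except that some results under this rule are not reported here. Of 116 listed symbols 1 was not in the table. Promoter sequences are from RefSeq (GRCm38.p6), and no coordinates of the authors' build were used. Figures used Python 3.11.15 and matplotlib 3.10.9.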

Additional observations from a re-analysis of the deposited data

Results flagged for a closer look

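Young 4 lay far from young 1 to 3 in the log2 ratio to erythroid regulators of 5 members. Its ratio was 0.5451 for Epb42 against 1.46 to 1.51 in the others, 3.754 for Slc4a1 against 4.72 to 4.90, 1.4846 for Sptb against 2.55 to 2.68, 0.6281 for Ank1 against 2.17 to 2.26, and 2.2325 for Epb41 against 3.10 to 3.17. Dixon's test of the gap over the range picked out these 5 of 48 groups of values (levels in CPM, levels in TPM and ratios of 8 genes in 2 age groups), and chance picks out about 1 in 20. The groups are not independent, since the same libraries and regulators enter each. Young 4 is the only young library of the 3-library set. The regulators themselves summed to 802 CPM in young 4, against 547, 627 and 570 CPM in young 1 to 3. All 5 flags were on ratios, so they do not single out the members' own levels.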

How the results depend on the processing

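All 8 members stayed below 0 in all 33 other fits. The count of called genes, 0 in the main test, was 360 with DESeq2, 319 with the library set term, 5 with the set and Y-linked terms, 2 in the 6-library set and 619 between young 1 to 3 and aged 5. Leaving out single libraries gave 0 to 6 genes (6 without aged 5), and 0 to 1633 with the set term (1633 without aged 3, 712 without aged 5). The count of called members, 0 in the main test, was 3 with DESeq2 and 7 between young 1 to 3 and aged 5, a fit with no spread among aged mice. It stayed 0 on leaving out any library, and was 0 to 8 with the set term (8 without aged 3, 1 without aged 5). The cause was not tested. Other scalings, filters, robust dispersions and limma-voom called 0 genes and 0 members. Against late erythroblast transcripts some differences in ratio reversed, with both library sets pooled. They were 0.20 for Sptb, 0.19 for Ank1, 0.26 for Epb41, 0.24 for Rhag, 0.23 for Rhd and 0.16 for Kel. Without aged 3 the ratio of Rhag to the regulators passed (exact permutation, adjusted p = 0.04885, and 0.0489 to 0.26 over the 9 removals). With so few libraries an adjusted p that low arises only where many other tested genes pass too. Their share is not given here, so the call does not set Rhag apart.

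With the replicate block (numbers 1 to 4, aged 5 left out) 13 genes and 0 members were called. The numbers mark different mice: deviations of same-numbered libraries correlated at 0.456, 0.554, −0.387 and 0.739, and young 1 and young 3 correlated best with aged 5, so the block was not used.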

Other observations

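Hemoglobin transcripts and the membrane genes took different shares of the libraries. In young 1 to 3 hemoglobin genes held 6.98% to 9.15% of the counts and the 8 membrane genes 0.588% to 0.723%. In young 4 the shares were 21.8% and 0.303%. In aged 3 they were 16.1% and 0.232%, and in aged 4 3.98% and 0.0829%. In aged 1, 2 and 5 hemoglobin held 0.697%, 2.23% and 3.75%, and the membrane genes 0.13%, 0.289% and 0.391%.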
